A study of Homo sapiens with 3 samples.

Results

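This account covers peaks of 2 DNA-binding proteins around 9 genes of ectodermal development: DLX1, DLX2, DLX3, DLX4, DLX5, DLX6, MSX2, PITX1 and TBX3. A peak was taken when its summit, the position of highest enrichment, lay within 150 kb of the hg19 span of a gene or gene pair, which gives 6 windows and 1.89 Mb in all. The windows held 28 of the 21922 rows deposited for p63 and 86 of the 39669 rows deposited for ZNF148. In the latter, 1 interval carried 2 summits and was counted once, so 85 ZNF148 peaks were described. Chromatin immunoprecipitation followed by sequencing (ChIP-seq) had been run on untreated FaDu cells, an established cell line of pharyngeal squamous carcinoma origin. The samples were 1 library with an antibody to ΔNp63α, 1 with an antibody to ZNF148 and 1 of input DNA made without antibody. Per the labels' protocols, the DNA came from 3 ChIP assays, and each antibody has 1 peak list, so no value below carries a replicate error and no test between conditions was possible. The lists hold binding only: expression of the members and of markers of the cell type was not measured in them.

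DLX proteins are homeobox transcription factors related to fly Distal-less, and their genes stand in pairs transcribed towards each other. DLX3 acts in the outer layers of the epidermis and in hair and teeth. DLX5 and DLX6 pattern the limb and the jaw, and rearrangements around them are known from split hand and foot malformation, which p63 mutations also cause. DLX1 and DLX2 are best known from the forebrain and the facial arches, and DLX4 from placenta. MSX2 is a homeobox repressor of skull and skin appendages, PITX1 a homeobox factor of the hindlimb and oral ectoderm, and TBX3 a T-box factor of limb and mammary gland. ΔNp63α is the form of p63 made in basal cells of stratified epithelia, where it binds mostly away from gene starts. ZNF148 is a zinc finger protein of GC-rich and C-rich DNA.

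The sequence before a gene's start is shown for 3 members, picked for their different ZNF148 peaks at the start. PITX1 had the strongest ZNF148 peak at a start, DLX6 had a group of 3 weaker ones, and MSX2 had none within 2 kb. RefSeq promoters matched 5 of the 9 members. Each sequence holds the 250 bases before the start, on the gene's strand, in build GRCh38.p14, which is not the build of the peaks, so whether a peak covers these bases was not tested. The positions are chr5:135034229-135034478 (minus strand) for PITX1, chr7:97005303-97005552 (plus) for DLX6 and chr5:174724332-174724581 (plus) for MSX2. Capitals mark the C-rich word CCCTCCCC and the GC box CCCCGCCCC, each searched on both strands. No marked matches overlap.
PITX1: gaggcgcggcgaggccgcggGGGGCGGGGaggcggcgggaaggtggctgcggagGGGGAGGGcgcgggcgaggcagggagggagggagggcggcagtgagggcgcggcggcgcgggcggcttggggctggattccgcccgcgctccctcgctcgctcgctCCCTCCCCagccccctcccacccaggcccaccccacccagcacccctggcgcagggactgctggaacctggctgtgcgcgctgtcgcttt
DLX6: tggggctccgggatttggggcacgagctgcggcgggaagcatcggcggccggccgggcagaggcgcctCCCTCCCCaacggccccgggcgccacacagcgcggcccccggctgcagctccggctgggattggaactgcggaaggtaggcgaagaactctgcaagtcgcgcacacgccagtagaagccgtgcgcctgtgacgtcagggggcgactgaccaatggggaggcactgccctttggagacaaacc
MSX2: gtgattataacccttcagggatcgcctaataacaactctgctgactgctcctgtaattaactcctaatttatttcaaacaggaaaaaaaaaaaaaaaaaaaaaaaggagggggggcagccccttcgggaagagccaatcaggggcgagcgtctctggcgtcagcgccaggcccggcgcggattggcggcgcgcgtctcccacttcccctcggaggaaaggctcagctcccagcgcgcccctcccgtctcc

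PITX1 held 2 matches to CCCTCCCC, at positions 55 and 161 counted from the first base shown, and 1 to the GC box, at position 21. DLX6 held 1 match to CCCTCCCC, at position 69. MSX2, DLX1 and DLX2 held neither word. Of these, DLX1 and DLX2 did have ZNF148 summits within 2 kb of the start, and MSX2 had none. Among 35116 RefSeq promoters of this length, 12.7% held CCCTCCCC and 15.1% held the GC box. G and C made up 79.2% of the bases for PITX1, 70.0% for DLX6, 68.0% for DLX2, 63.6% for DLX1 and 55.6% for MSX2, beside a median of 58.0% over all promoters. The core of a p53-family full site was found in none of the 5 member promoters and in 4.02% of all promoters. A match describes letters and does not show a bound site.

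Peaks of both proteins were denser around the members than over the whole lists, and for ZNF148 most of the excess came from the window of DLX3 and DLX4. p63 had 14.8 peaks per Mb over the 6 windows (95% Poisson interval 9.83 to 21.4), beside 7.30 per Mb over its list. ZNF148 had 44.9 per Mb (35.9 to 55.5), beside 12.8. Without the DLX3 and DLX4 window the densities were 12.8 per Mb for p63 and 24.9 for ZNF148. These intervals cover counting error and treat neighbouring peaks as independent. The windows were chosen around genes, while the densities of the lists include gene-poor stretches.

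The DLX3 and DLX4 window on chromosome 17 held 46 ZNF148 and 8 p63 peaks. Tiles of the same length laid over all chromosomes held as many ZNF148 peaks in 0.144% of cases and as many p63 peaks in 4.09%. Chromosome 17 as a whole had 30.7 ZNF148 peaks per Mb, and this window had 141. PITX1 followed with 13 ZNF148 peaks (6.30% of tiles held as many) and 4 p63 peaks (22.2%). The window of DLX1 and DLX2 held 11 ZNF148 peaks (8.78%) and 5 p63 peaks (14.6%). TBX3 had 7 ZNF148 (17.0%) and 5 p63 peaks (14.3%), and DLX5 and DLX6 had 5 (27.9%) and 4 (23.5%). MSX2 had the fewest, 3 ZNF148 (46.5%) and 2 p63 peaks (53.8%), which is near the median tile with 2 peaks of either protein.

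**Figure D1:**
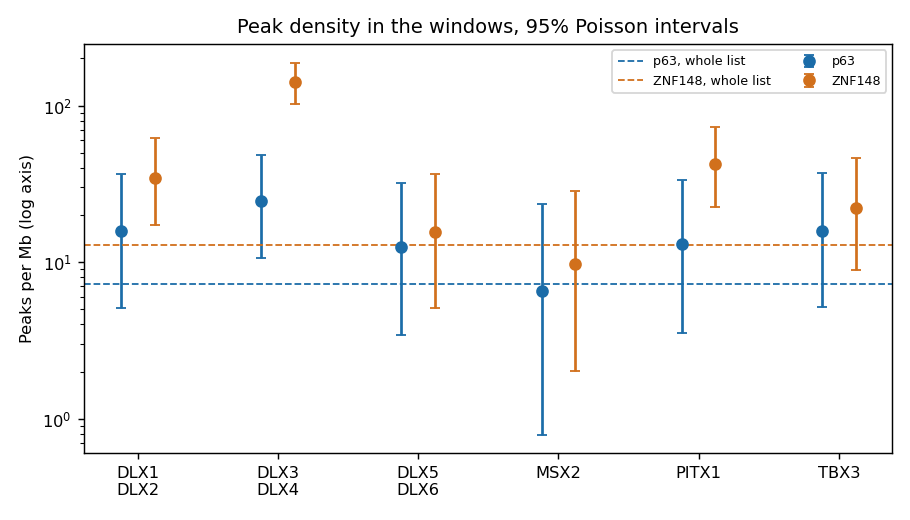
Peaks per Mb (log axis) in each of the 6 windows for p63 and ZNF148, with 95% Poisson intervals, and the density of each whole list as a dashed line. ZNF148 stands highest at DLX3 and DLX4 with 141 per Mb, and at that window alone the p63 interval (10.6 to 48.2) lies above the whole-list value of 7.30. The p63 density of chromosome 17 as a whole, 10.8 per Mb, is inside that interval. The ZNF148 intervals of DLX5 and DLX6, MSX2 and TBX3 include the whole-list value of 12.8.

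There were 0.329 p63 peaks for each ZNF148 peak over the 6 windows, beside 0.568 over the whole lists. The DLX3 and DLX4 window had 0.174, and the other 5 together had 0.513. The ratio ranged up to 0.800 at DLX5 and DLX6, where it rests on 4 and 5 peaks.

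On the median, the ZNF148 members had folds near that of their list, and the p63 members had lower ones. The fold enrichment, deposited by the authors for each peak over local background, had a median of 10.9 for the 28 p63 members (quartiles 7.67 and 16.9), beside 13.2 for the list (8.39 and 24.5). A fold of at least 10 was reached by 16 of 28 (57.1%), beside 65.1% of all p63 peaks. The p63 medians by window ran from 6.46 at MSX2 to 14.9 at DLX3 and DLX4, the only window above the list's median. Whether the p63 difference exceeds counting error was not tested. The 85 ZNF148 members had a median fold of 10.1 (7.50 and 13.2), beside 9.83 (7.21 and 16.6), and 44 of 85 reached 10 (51.8%, beside 49.6%). Among the most significant 10.0% of each list by q value were 3 of the 28 p63 members and 5 of the 85 ZNF148 members (5.88%). The p63 count is close to the share of the list. The 3 p63 peaks lay at DLX1 and DLX2 and at DLX3 and DLX4. The ZNF148 peaks were spread over 4 windows, with 2 at DLX3 and DLX4 and 1 each at DLX1 and DLX2, MSX2 and PITX1.

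**Figure D2:**
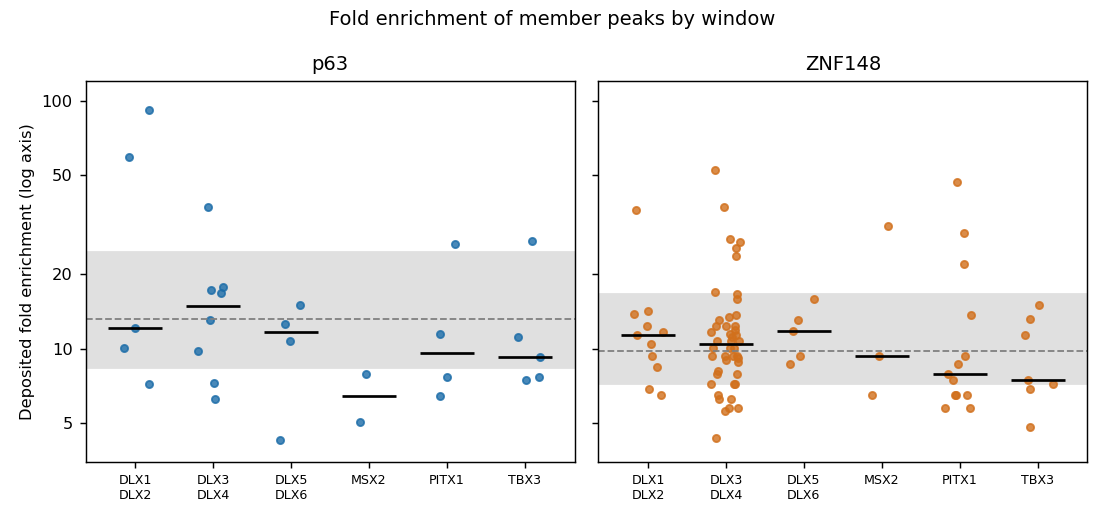
Deposited fold enrichment (log axis) of every member peak by window, p63 at the left and ZNF148 at the right. Black bars are window medians, the dashed line and grey band the median and quartiles of the whole list (13.2, 8.39 and 24.5 for p63; 9.83, 7.21 and 16.6 for ZNF148), and points are spread sideways for legibility. The highest p63 points, 91.8 and 59.1, are both at DLX1 and DLX2.

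The 2 proteins lay at different distances from the genes. ZNF148 had a summit within 2 kb of the start of 7 of the 9 members, namely DLX1, DLX2, DLX3, DLX4, DLX6, PITX1 and TBX3, and p63 had one at the start of 1, DLX3. With a limit of 1 kb the ZNF148 count was again 7 and the p63 count 0. With 5 kb they were 8 and 2, MSX2 being added to both. The windows hold 85 ZNF148 and 28 p63 peaks, so the 2 counts are not on equal terms, and starts were not counted with lists of equal length. Starts were taken as the ends of the spans, which are given to the nearest 1 kb, so shorter distances are not resolved. The share of all genes with such peaks needs an hg19 annotation and was not analysed here, so these counts describe the members and do not set them apart from other genes.

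Of the 85 ZNF148 members, 28 had a summit inside a span or within 5 kb of it (32.9%, 95% Wilson interval 23.9 to 43.5%). Of the 28 p63 members, 3 did (10.7%, 3.71 to 27.2%). This zone makes up 8.08% of the length of the windows. The Wilson intervals treat neighbouring peaks as independent, and 46 of the 85 ZNF148 peaks lie at DLX3 and DLX4. Without DLX3 and DLX4 the shares were 46.2% of 39 and 5.0% of 20. The median distance from a summit to the nearest start was 42.1 kb for ZNF148 and 81.6 kb for p63. Of the p63 members, 20 of 28 (71.4%) lay more than 50 kb from a start, and of the ZNF148 members 42 of 85 (49.4%). The 15 ZNF148 peaks within 2 kb of a start had a median fold of 11.8, and the other 70 a median of 9.38.

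**Figure D3:**
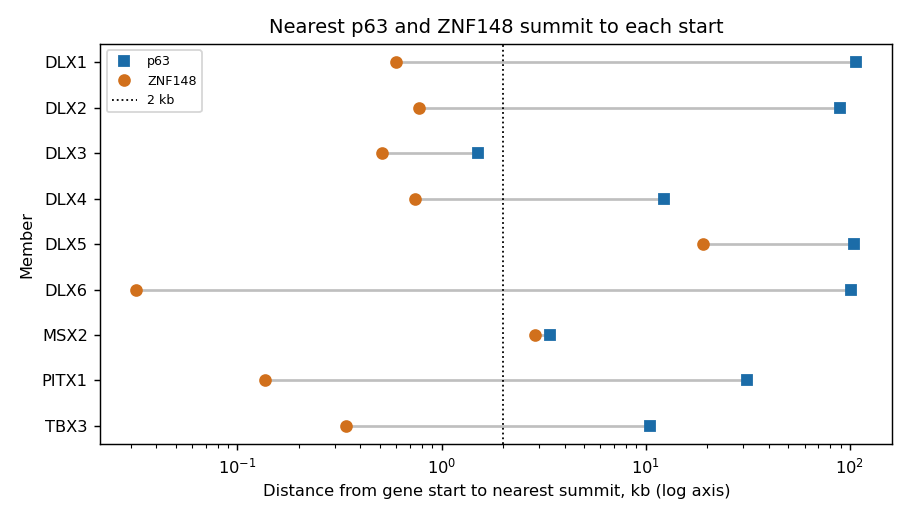
Distance in kb (log axis) from each member's start to the nearest p63 summit (squares) and ZNF148 summit (circles), with 2 kb as a dotted line. ZNF148, which has more peaks in the windows (85 against 28), is the nearer for each of the 9 members, and p63 is left of the line for DLX3, at 1.5 kb.

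At DLX1 and DLX2 the ZNF148 peaks over the pair had no p63 peak near, while 1 site above DLX2 was shared. ZNF148 had 8 peaks in 24.7 kb over and beside the pair (chr2:172949255-172973924), with folds of 6.49 to 36.1. The strongest, chr2:172960180-172960517, lay between the ends of the span at 10.3 kb from its lower end. Peaks at the DLX1 start had folds of 11.4 and 11.7, and the peak nearest to the DLX2 start, 0.77 kb upstream, had 10.4. The other peaks inside the span had folds of 14.2, 9.37 and 8.43. The p63 summit closest to the span lay 89.7 kb above it.

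All 5 p63 peaks of this window lay above DLX2, on the side where ITGA6, an integrin subunit of basal epithelial cells, is the next protein-coding gene in RefSeq. The peak chr2:173061600-173062045, at 93.9 kb from the span, had a fold of 91.8 and ranked 6 among 21520 p63 peaks, and the nearest ZNF148 summit was 4214 bp away. A second strong peak, chr2:173093145-173093501 at 125 kb, had a fold of 59.1 (rank 274). Its nearest ZNF148 summit, 739 bp away, belonged to a peak of fold 12.3 that did not overlap it. The other 3 p63 peaks had folds of 12.1, 10.1 and 7.19. The first of these, chr2:173057563-173057756, shared its site with a ZNF148 peak of fold 13.8, with summits 15 bp apart. The strongest p63 sites of the window were thus not the shared one.

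At DLX3 and DLX4 the proteins were interleaved. DLX3 was the member with a p63 peak at its start: chr17:48074415-48074627, 1.5 kb upstream, with a fold of 13.0 (rank 11615). A ZNF148 peak of fold 26.8 (chr17:48074293-48074701) covered it, and the summits were 13 bp apart. ZNF148 peaks of folds 27.6 (chr17:48072352-48072644) and 11.9 lay on either side of the DLX3 start, at 0.51 and 0.72 kb. At the DLX4 start ZNF148 had folds of 13.1 and 7.21, and no p63 peak was nearer than 12.3 kb. Between the genes, p63 had its single peak inside any of the 6 spans, chr17:48058171-48058487, with a fold of 17.8 (rank 5457). The nearest ZNF148 summit was 3255 bp away, in a peak of fold 23.7. The other ZNF148 peaks inside this span had folds of 10.1, 9.38, 6.25 and 7.94.

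Above DLX3, towards ITGA3 as the next protein-coding gene in RefSeq (the integrin subunit that pairs with integrin beta 1 in basal cells), 12 ZNF148 peaks stood in 34.4 kb (chr17:48105589-48140036). They held the strongest ZNF148 member of all windows, chr17:48105589-48106096, with a fold of 52.5 (rank 774), and chr17:48125025-48125415 with a fold of 37.4. A p63 peak of fold 6.26 lay 663 bp from the former without overlap. Within the same stretch p63 had 3 peaks in 6.12 kb, with folds of 16.8, 7.26 and 37.3. The last, chr17:48139859-48140191 (rank 1451), overlapped a ZNF148 peak of fold 8.13, with summits 86 bp apart, and the one of fold 16.8 overlapped a ZNF148 peak of fold 10.7, at 55 bp. A further pair, with folds of 9.76 for p63 (chr17:48114828-48115066) and 8.84 for ZNF148, had summits 125 bp apart. Below DLX4, 16 ZNF148 peaks stood in 53 kb (chr17:47940239-47993226) with folds of 4.38 to 25.4, and 1 p63 peak of fold 17.2 met a ZNF148 peak of fold 17.0 there, with summits 73 bp apart. Which of these peaks lie in neighbouring genes was not analysed here.

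At DLX5 and DLX6 no site within the window was shared. ZNF148 had 3 peaks within 1.13 kb at the DLX6 start, with folds of 8.66, 15.9 (chr7:96635131-96635373) and 11.8, and none at the DLX5 start, where the nearest summit was 19.2 kb away, at DLX6. Its other 2 peaks lay 50.4 and 101 kb above the span, with folds of 9.38 and 13.0. The p63 peaks were all more than 100 kb from the pair. Below DLX6, on the side of SEM1, they lay at 135, 103 and 102 kb with folds of 15.0, 12.6 and 10.7, the second at chr7:96531442-96531661, and their nearest ZNF148 summits were 18155, 50029 and 51877 bp away. The p63 peak above DLX5, at 105 kb, had a fold of 4.29 and ranked 21371, the lowest p63 rank among the members.

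MSX2 had a strong ZNF148 peak and a weak p63 peak side by side. The ZNF148 peak chr5:174147966-174148513, 2.88 kb upstream of the start, had a fold of 31.3 (rank 3669). The p63 peak chr5:174147531-174147690, 3.40 kb upstream, had a fold of 5.04 (rank 20796), and its summit was 523 bp from that of ZNF148 without overlap of the peaks. The second p63 peak lay 93.9 kb below the gene with a fold of 7.87. The other ZNF148 peaks lay 5.42 and 6.58 kb beyond the end of the gene, with folds of 6.49 and 9.38.

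PITX1 carried the strongest ZNF148 peak at any member's start. It was chr5:134369862-134370313, with a fold of 46.9 (rank 1535), at the start to within the 1 kb precision of the span. A peak of fold 29.4 followed 5.54 kb upstream, and peaks of folds 7.94 and 7.50 lay 1.66 kb upstream and 0.86 kb beyond the end of the gene. The 4 p63 peaks were all upstream, at 31.2, 72.5, 82.0 and 107 kb, with folds of 11.5, 26.5, 6.47 and 7.72. The strongest was chr5:134442315-134442596. The farthest, chr5:134476539-134476815, overlapped a ZNF148 peak of fold 21.9 (chr5:134476645-134476950), with summits 169 bp apart. The first and second had ZNF148 summits at 644 and 599 bp, both in peaks of fold 6.49 that did not overlap them.

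At TBX3 the ZNF148 peaks stood in and around the gene, and 4 of the 5 p63 peaks lay outside the stretch they covered. All 7 ZNF148 peaks fell within 34.2 kb (chr12:115100595-115134790), with folds of 4.83 to 15.0, the highest at chr12:115100595-115100835. Peaks on either side of the start had folds of 13.2 (0.34 kb upstream) and 4.83 (0.57 kb into the gene). Another inside the gene had a fold of 7.21, and one 1.33 kb beyond its end 7.50. The 5 p63 peaks lay 70.1, 41.7 and 33.3 kb beyond the end of the gene and 10.4 and 96.9 kb upstream of its start. Their folds in that order were 9.27, 7.72, 27.1, 7.50 and 11.1, the highest at chr12:115074584-115074839 (rank 5414). None overlapped a ZNF148 peak, and the nearest pair of summits, upstream of the start, was 1873 bp apart. That p63 peak, chr12:115132354-115132543, lay inside the ZNF148 stretch.

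**Figure D4:**
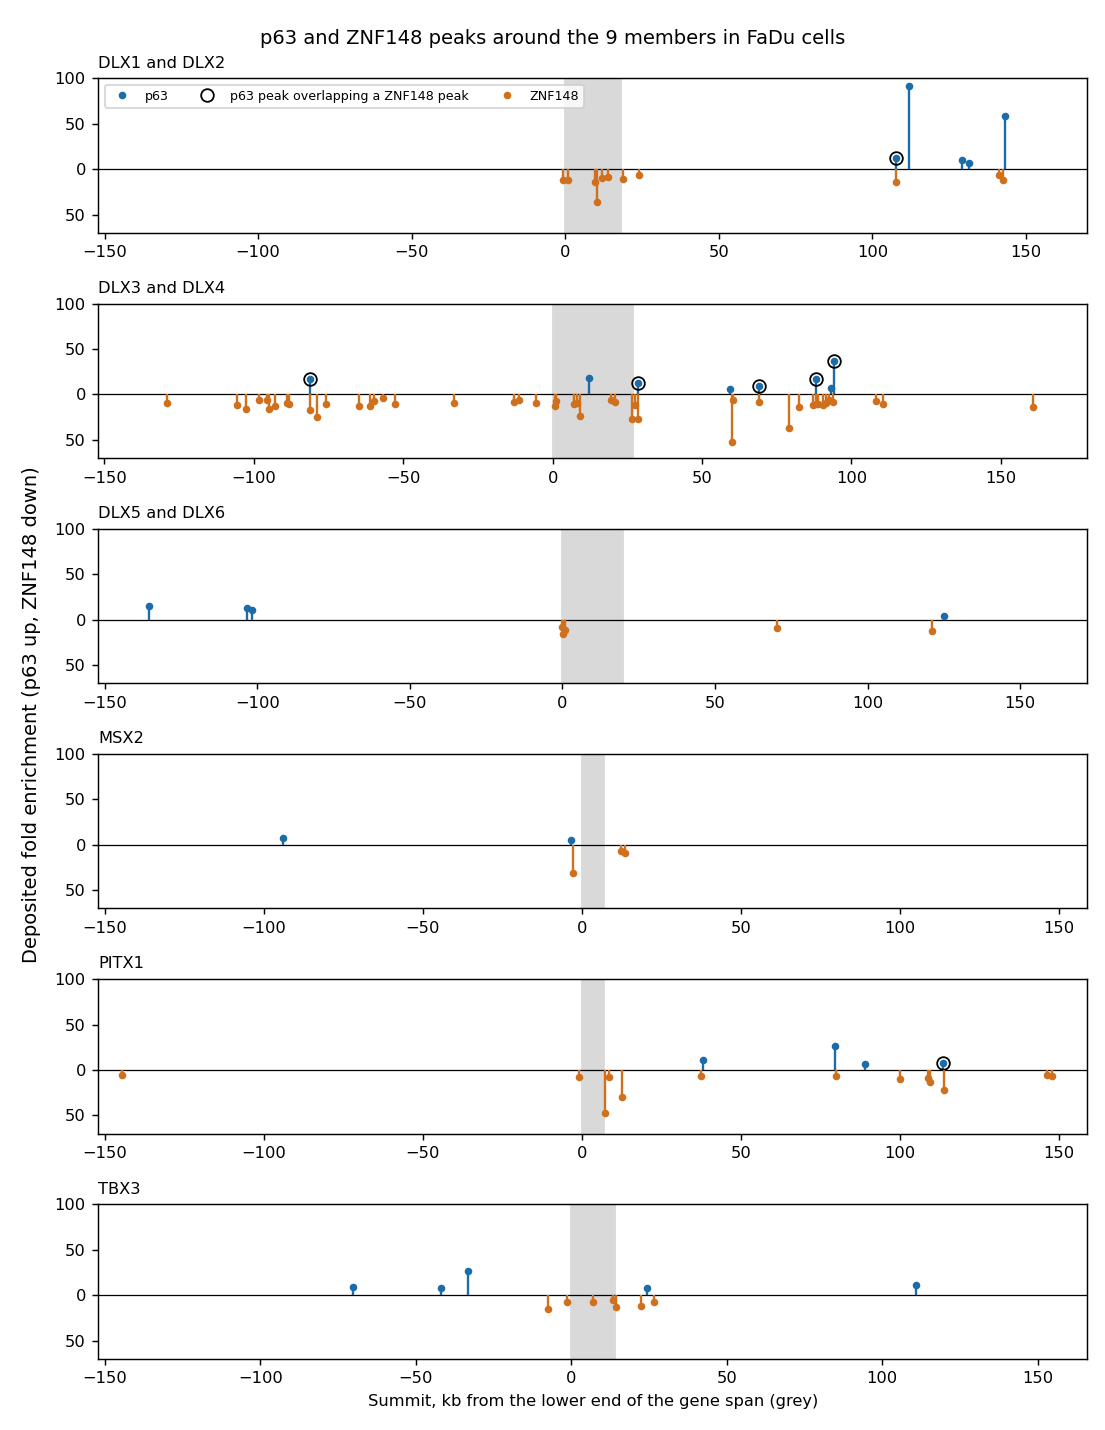
Summits of p63 (upward, blue) and ZNF148 (downward, orange) in the 6 windows, as kb from the lower end of each span (grey), with deposited fold enrichment as height. Circles mark the 7 p63 peaks that overlap a ZNF148 peak, 5 of them at DLX3 and DLX4.

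The title of the series asks whether the proteins act together, which overlap of peaks does not show. At the members, 7 sites were shared. Of the 28 p63 peaks, 7 had an overlap of at least 1 bp with a ZNF148 peak (25%, 95% Wilson interval 12.7 to 43.4%), beside 21.2% of all p63 peaks. Of the 85 ZNF148 peaks, 7 overlapped a p63 peak (8.24%, 4.05 to 16.0%), beside 12.1%. Both shares are near those of the whole lists, and their intervals also treat neighbouring peaks as independent. The window of DLX3 and DLX4 supplied 5 of the 7 sites, and without it 2 of 20 p63 peaks (10.0%) and 2 of 39 ZNF148 peaks (5.13%) overlapped.

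The 7 shared sites of the members, 5 of them at DLX3 and DLX4, had lower folds, on the median, than shared sites over the whole lists. Their p63 folds had a median of 13.0 (range 7.72 to 37.3), beside 26.2 over all overlapping p63 peaks, and their ZNF148 folds a median of 13.8 (8.13 to 26.8), beside 23.8. Summits coincided within 25 bp at 2 of the 28 p63 peaks (7.14%), the ones above DLX2 and at the DLX3 start, beside 13.5% of the list. At the other 5 shared sites the summits were 55 to 169 bp apart. The fold of p63 over that of ZNF148 at a shared site ran from 0.353 above PITX1 and 0.485 at the DLX3 start to 4.59 in the stretch above DLX3. Depth and background differ between the 2 libraries, so this ratio orders sites and does not measure the proteins against each other.

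A further 6 p63 peaks had a ZNF148 neighbour within 1 kb that they did not overlap. Counting these with the 7 shared sites, a ZNF148 summit lay within 1 kb of 13 of the 28 p63 peaks (46.4%), beside 26.4% of the list. At DLX3 and DLX4 this held for 7 of 8 p63 peaks, and elsewhere for 6 of 20 (30.0%), which is close to the share of the list. At the other end, 9 of 28 p63 peaks (32.1%) had no ZNF148 summit within 10 kb, beside 52.4%. These 9, all among the 20 p63 peaks outside the DLX3 and DLX4 window, were 4 peaks at TBX3, 3 at DLX5 and DLX6, and 1 each at MSX2 and at DLX1 and DLX2. The p63 peaks at DLX3 and DLX4 (0 of 8) and at PITX1 (0 of 4) included no such peak. Of the ZNF148 peaks, 48 of 85 (56.5%) had no p63 summit within 10 kb, beside 64.1%. The share was 45.7% at DLX3 and DLX4, and in the other windows it ran from 61.5% at PITX1 to 80.0% at DLX5 and DLX6.

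**Figure D5:**
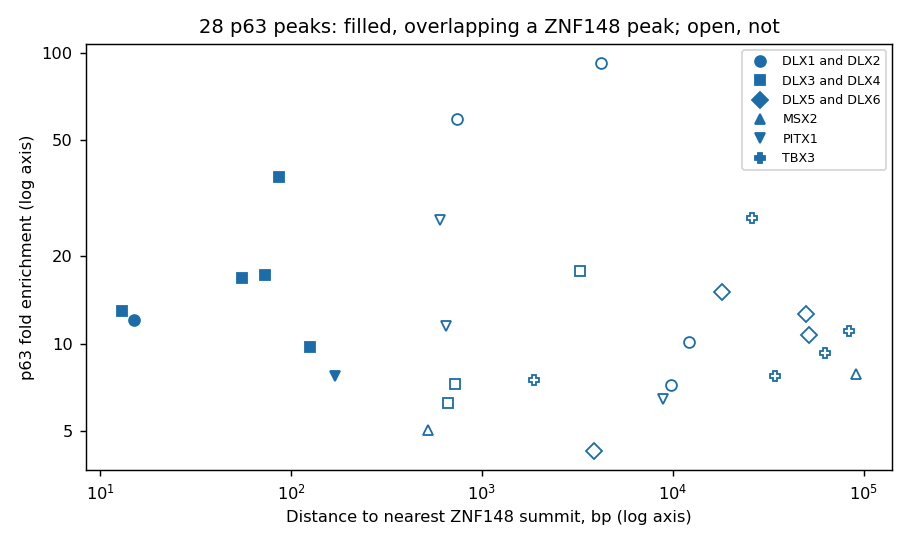
Fold enrichment of the 28 p63 member peaks against the distance to the nearest ZNF148 summit in bp (both axes log), by window. Filled symbols overlap a ZNF148 peak; the p63 peaks with the highest folds, 91.8 and 59.1, are open, at 4214 and 739 bp.

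The outermost p63 peak taken lay 135 kb from a span, below DLX6 (fold 15.0), and the next beyond the limit 153 kb above DLX3 (chr17:48226148-48226461, fold 10.1). For ZNF148 these were peaks at 144 kb, below PITX1 (fold 5.77), and at 151 kb, above DLX3 (chr17:48223583-48224048, fold 24.5).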

How the data were processed

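Per the submitters' processing notes, MACS2 2.2.6, Bowtie2 2.3.4.3, SAMtools 1.7, MultiQC 1.12, FastQC 0.11.9 and the build hg19 were used, with no role or setting named. The control library, duplicate handling and read filters were not given in the sources used here. Columns were taken in narrowPeak order, as there is no header. The deposited fold enrichment is a ratio over local background. Each summit also has a −log10 p and a −log10 q value deposited by the authors, the latter at least 3.01 in the p63 list and 3.02 in the ZNF148 list. The deposited score was not used. Read depth is unknown.

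Peaks on chromosomes 1 to 22 and X were kept, 1 per interval with its most significant summit (21520 for p63, 37883 for ZNF148), and ranked by q value, ties sharing a rank. Positions are 1-based. Overlap meant at least 1 bp, checked against bedtools 2.31.1. For list densities and tiles, a chromosome ran from its first to its last peak in either list, and tiles had the length of each window. By the rule for named peaks, folds are given for the most significant peak and the one nearest to the span in each window and list, for peaks within 5 kb of a span, for overlapping pairs and for the most significant 10% of a list. Positions are printed for part of these. Folds of some other member peaks are given beyond this rule. Starts were assigned to span ends from the strand in the RefSeq table or, for DLX3, DLX4, DLX5 and TBX3, from general knowledge. Neighbouring genes are from RefSeq, GRCh38.p14, by name alone. The members, lists and limits were chosen with earlier results of these data known. The code was tested on simulated lists. Alternatives were other windows, thresholds, overlap criteria and lists of equal length. Calculations used Python 3.11.15, numpy 2.4.6, pandas 2.3.3, scipy 1.17.1 and matplotlib 3.10.9.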

Additional observations from a re-analysis of the deposited data

How the results depend on the processing

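Under the alternatives, 25 of 40 values remained inside the 95% counting interval of the main value, or within 1.5 times for counts, and 15 did not. Counting intervals treat neighbouring peaks as independent. Leaving out DLX3 and DLX4 moved the ZNF148 density from 44.9 to 24.9 per Mb, the share of p63 peaks shared from 25% to 10.0%, the share of ZNF148 peaks inside or within 5 kb of a span from 32.9% to 46.2% and the ratio of p63 to ZNF148 peaks from 0.329 to 0.513. Leaving out any other window gave ratios of 0.295 to 0.333. With lists of equal length the ratio was 0.519, beside 1.00 for those lists. ZNF148 density was 62.0 per Mb with 50 kb and 55.7 with 100 kb on either side. A fold of at least 10 kept 16 p63 and 44 ZNF148 peaks. With summits within 25 bp, 7.14% of p63 and 2.35% of ZNF148 peaks were shared, and within 1 kb 46.4% and 18.8%. The members with a p63 summit at the start numbered 0 with 1 kb and 2 with 5 kb, in place of 1. The alternatives for starts and those without DLX3 and DLX4, other than for the ratio, were chosen after seeing the data. No paired analysis was possible because each antibody has 1 library. Peaks under the lists' q limit cannot be seen at any member, and the counts of 2 to 8 p63 peaks per window leave wide intervals.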

Other observations

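Farther out, from 150 to 500 kb on either side of the spans (a range chosen after the peaks had been seen), some sites were strong in both lists. Below DLX6, on the side of SEM1, the p63 peak chr7:96481372-96481755 lay 153 kb from the span with a fold of 57.8, and a ZNF148 peak of fold 51.9 had its summit 18 bp away. That flank, singled out here from those of all 6 windows, held 5 p63 and 5 ZNF148 peaks, of which 3 in each list were shared. Over the whole lists, 21.2% of p63 and 12.1% of ZNF148 peaks were shared. Below DLX4, 3 of 7 p63 and 3 of 23 ZNF148 peaks were shared, and above DLX3 1 of 5 and 1 of 26. Above DLX2 it was 1 of 7 and 1 of 8, above DLX5 1 of 1 and 1 of 4, and below DLX1 0 of 2 and 0 of 3. A share over all flanks was not calculated. The flanks of MSX2, PITX1 and TBX3 held no shared site. Above DLX5, at 238 kb, a p63 peak of fold 34.6 met a ZNF148 peak of fold 35.6, with summits 15 bp apart. Above DLX2, at 212 kb, the folds were 56.5 for p63 and 49.8 for ZNF148, with summits 14 bp apart. Below DLX4, at 460 kb, a p63 peak of fold 60.7 met a ZNF148 peak of fold 23.5, with summits 30 bp apart. In the same flank, at 445 kb, the folds were 27.5 for p63 and 58.8 for ZNF148, with summits 22 bp apart. Within 150 kb, the window of DLX5 and DLX6 had no shared site.

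TBX3 had few peaks beyond its window. From 150 to 500 kb p63 had 1 peak below the gene, with a fold of 7.50, and 0 above, and ZNF148 had 1 on either side, with folds of 4.74 and 13.5. MSX2 had a p63 peak that ranked 927 at 395 kb below the gene (chr5:173755704-173756017), and its nearest ZNF148 summit was 137491 bp away.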
